A study of Mus musculus with 8 samples.

Results

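The genes of epithelial adhesion and its control examined here in the lungs of mouse embryos comprised 6 structural genes, Epcam, Cdh1, Cldn3, Cldn4, Cldn6 and Cldn7, and 4 regulators, Esrp1, Grhl2, Ovol1 and Ovol2. They were chosen by name, and all 10 were measured among the 22180 genes that carried a single symbol on the array. Where a gene had several probe sets the one with the highest mean over all arrays was used, which among these 10 applied to Cdh1 alone.

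Whole lungs were taken at embryonic day 14.5 from 4 mutant embryos of genotype Shh-cre:Ezh2-flox/flox and from 4 control embryos of genotype Shh-cre, all on a mixed C57BL/6 x 129S6 background. Both groups carried the Cre driver, which is expressed from the Shh locus and is active in lung epithelium, and only the mutants carried the floxed alleles of Ezh2, which encodes the catalytic subunit of the Polycomb complex PRC2. Each embryo gave 1 array. The embryos came from 4 litters of 2 that each held a single genotype: litter 1 was controls 1 and 2, litter 2 was controls 3 and 4, litter 3 was mutants 1 and 2, and litter 4 was mutants 3 and 4. Values are log2 expression per probe set, a log2 change is mutant minus control, and a gene passed the test at an adjusted p of 0.05 or less. The lung epithelium markers Nkx2-1 and Sftpc had log2 values of 10.79 ± 0.10 and 12.85 ± 0.17 in controls (SD, n = 4). In whole lung, fewer epithelial cells and less RNA per epithelial cell cannot be told apart.

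Epithelial cells adhere through E-cadherin, the product of Cdh1, in adherens junctions and are sealed by claudins in tight junctions, while EpCAM is a surface glycoprotein of embryonic epithelia. The transcription factor GRHL2 sustains many of these genes, the splicing factor ESRP1 sets the epithelial forms of many transcripts, and the zinc finger proteins OVOL1 and OVOL2 repress genes of the mesenchymal state, Zeb1 among them. ZEB and SNAIL proteins in turn repress epithelial genes through short E-box sequences near their start sites.

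The promoters of the structural genes are shown because they hold such E-boxes. A window from 250 bases before to 50 bases after the start site was matched by symbol among RefSeq promoters (GRCm38.p6) for 6 of the 10 genes: Epcam, Cldn3, Cldn4, Cldn6, Cldn7, which had 2 windows, and Ovol2. Both strands were searched for the E-box CAGGTG, which reads CACCTG when taken from the other strand, for the GRHL motif AACCNGTT and for the OVOL motif CCGTTA. No matches shared bases with one another in the windows of these genes. The E-box occurred in 5 of the 7 windows, those of Epcam, Cldn3, Cldn4 and Cldn6 and the second of Cldn7, and in 20.2% of all 32851 windows of the same length. It lay 187 and 19 bases before the start of Epcam, 14 before and 12 after that of Cldn4, 93 before and 41 after that of Cldn6, 97 and 57 before that of Cldn7, and 32 after that of Cldn3. Neither of the other motifs occurred in the 7 windows, against 2.09% of all windows for the GRHL motif and 2.76% for the OVOL motif. A match describes letters and is not a measured binding site. The 200 bases before the start follow for the 4 genes with an E-box there, 5′ to 3′ on the strand of the gene, with the E-box in capitals. They span chr17:87635779-87635978 on the plus strand (Epcam), chr5:134946935-134947134 on the minus strand (Cldn4), chr17:23679165-23679364 on the plus strand (Cldn6) and chr11:69965221-69965420 on the plus strand (Cldn7).
Epcam: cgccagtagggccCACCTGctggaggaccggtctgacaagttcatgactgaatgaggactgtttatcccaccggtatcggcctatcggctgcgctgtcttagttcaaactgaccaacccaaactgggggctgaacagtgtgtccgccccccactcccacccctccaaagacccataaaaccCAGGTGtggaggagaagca
Cldn4: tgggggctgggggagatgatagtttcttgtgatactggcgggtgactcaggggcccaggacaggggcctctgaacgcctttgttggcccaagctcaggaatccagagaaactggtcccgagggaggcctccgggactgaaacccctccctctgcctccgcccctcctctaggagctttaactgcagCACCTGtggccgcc
Cldn6: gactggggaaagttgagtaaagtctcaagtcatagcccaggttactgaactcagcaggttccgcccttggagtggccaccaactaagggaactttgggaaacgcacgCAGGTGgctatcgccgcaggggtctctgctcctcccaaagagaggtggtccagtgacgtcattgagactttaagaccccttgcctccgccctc
Cldn7: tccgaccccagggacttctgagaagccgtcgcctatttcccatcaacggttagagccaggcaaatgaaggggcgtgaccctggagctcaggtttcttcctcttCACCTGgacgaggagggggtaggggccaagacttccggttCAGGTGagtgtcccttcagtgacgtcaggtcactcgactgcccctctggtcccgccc

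Among the regulators, Ovol1 rose in the mutant lungs, 1.33-fold. Esrp1 and Grhl2 lay lower in every mutant than in every control without passing the test, with log2 changes of −0.24 and −0.18, and Ovol2 had a log2 change of 0.03. Among the structural genes, Epcam lay lower in every mutant without passing, with a log2 change of −0.26, and the others overlapped between the groups. In the limma fit (Benjamini-Hochberg adjusted) 1 of the 10 genes passed, against 0.852% of all genes: 1 was higher and 0 were lower, against 0.604% and 0.248%. At an unadjusted p of 0.05 by limma the count was 5 of 10, against 9.87% of all genes. The groups did not overlap for 4 of the 10, against 8.07% of all genes: 1 was higher and 3 were lower in mutants, against 4.48% and 3.6%. Epcam, Esrp1 and Grhl2, the genes that were lower, lay above the median level. Of the 11090 genes above that level, 658 had all mutants lower and 544 all mutants higher. Among the same 11090 genes 1342 had an unadjusted p of 0.05 or less by limma.

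**Figure D1:**
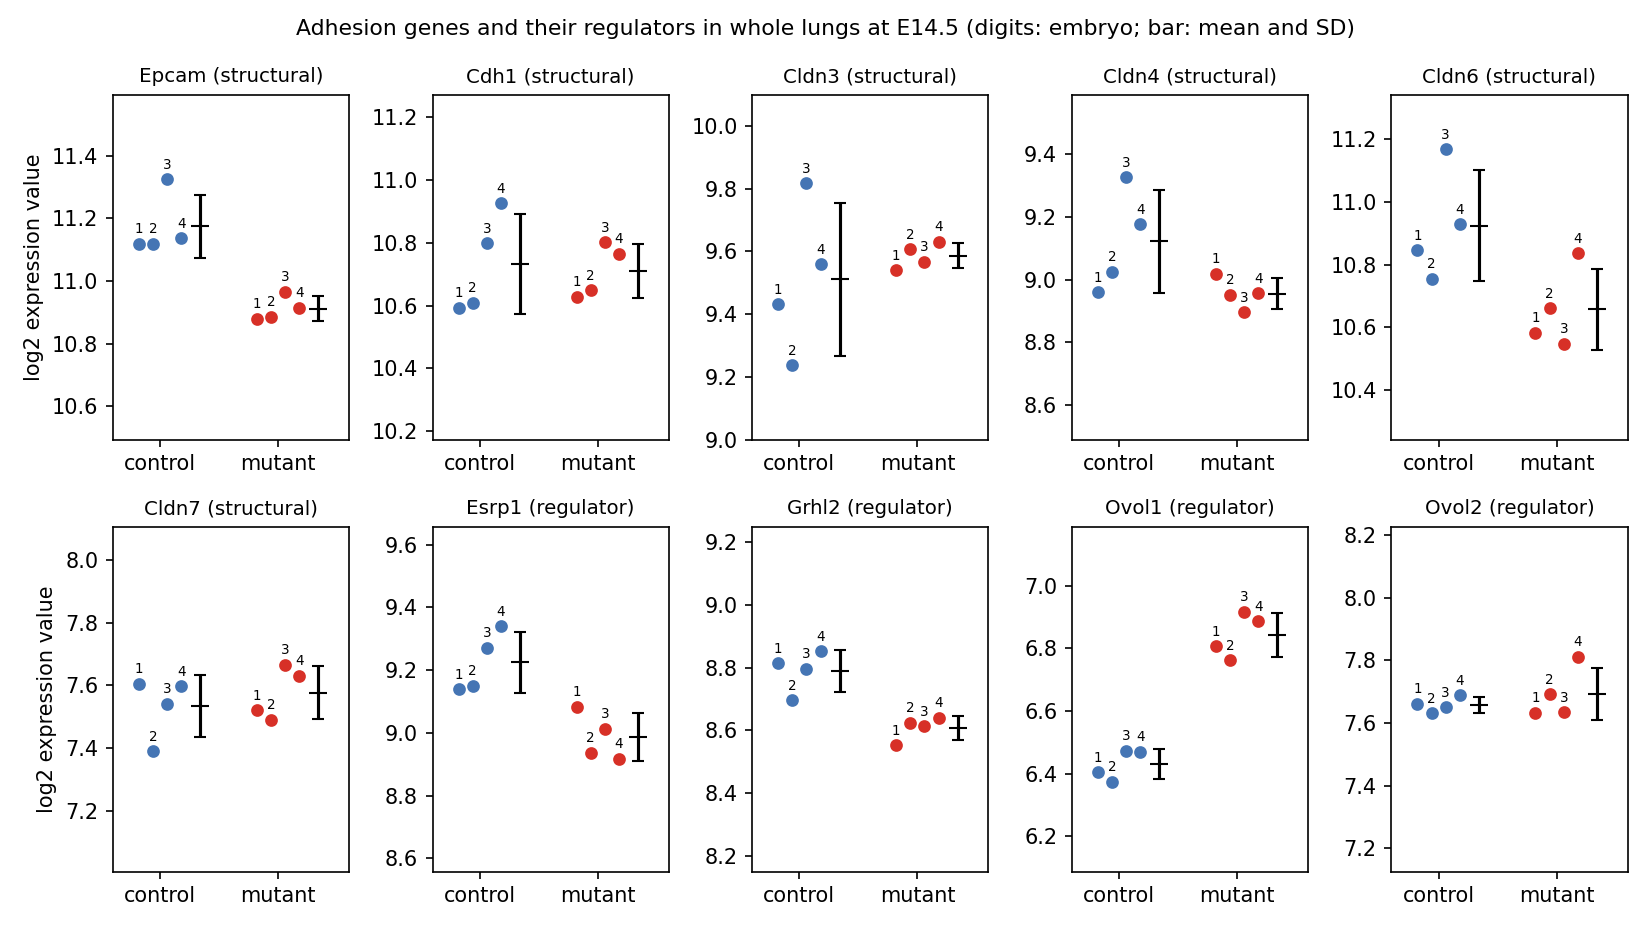
Log2 expression values of the 10 genes, 1 panel per gene, with controls in blue, mutants in red, digits naming the embryo, and the bar giving the mean and SD (n = 4 per group). Every panel spans the same number of log2 units, and the groups are separate for Epcam, Esrp1, Grhl2 and Ovol1.

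Ovol1 encodes a repressor that acts in differentiating epithelia such as the epidermis. Its log2 values were 6.41, 6.38, 6.47 and 6.47 in controls 1 to 4 and 6.81, 6.76, 6.92 and 6.89 in mutants 1 to 4. All mutants lay above all controls, and the litter means were 6.39 and 6.47 in controls and 6.78 and 6.90 in mutants. Its log2 change came to 0.41 ± 0.06 (SE, n = 4 per group), and the adjusted p was 0.00759 (limma, Benjamini-Hochberg). A two-sided exact permutation test over embryos gave p = 0.0286, which is its minimum for groups of 4 and takes littermates as independent. With littermates averaged, 2 values against 2, the log2 change was again 0.41 and the adjusted p by limma was 0.107. Over all alternatives the adjusted p ran from 0.00399 to 0.107, and the call was also lost without litter 1 (0.0586), without litter 4 (0.0692) and among embryos with high Xist (0.0917).

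Ovol2 encodes the relative of OVOL1 that keeps epithelial cells from taking on mesenchymal traits. Its log2 values were 7.66, 7.63, 7.65 and 7.69 in controls and 7.63, 7.69, 7.63 and 7.81 in mutants. The groups overlapped, with mutant 4 highest. The log2 change had a 95% interval of −0.10 to 0.17, and that of Ovol1 ran from 0.28 to 0.54. The difference between these paralogues was not tested.

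Grhl2, which sustains Cdh1 and claudin expression in many epithelia, had log2 values of 8.81, 8.70, 8.80 and 8.85 in controls and 8.55, 8.62, 8.61 and 8.64 in mutants. Every mutant lay below every control, with control 2 nearest to the mutants. The mutant mean lay lower by a log2 change of −0.18 ± 0.06 (SE of 4 against 4 embryos), and the adjusted p was 0.299 (limma, Benjamini-Hochberg).

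Esrp1, which directs the epithelial splicing of transcripts such as those of FGF receptor genes, had log2 values of 9.14, 9.15, 9.27 and 9.34 in controls and 9.08, 8.94, 9.01 and 8.92 in mutants. No mutant reached a control value, and mutant 1 came closest. Its change on the log2 scale was −0.24 ± 0.07 (SE, n = 4 per group), and the adjusted p was 0.224 (limma, Benjamini-Hochberg). Exon use was not analysed here.

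Epcam had log2 values of 11.12, 11.12, 11.32 and 11.14 in controls and 10.88, 10.89, 10.97 and 10.91 in mutants. All mutants lay below all controls, and control 3 stood above the other controls. On the log2 scale Epcam differed by −0.26 ± 0.07 (SE, n = 4 per group), and the adjusted p was 0.139 (limma, Benjamini-Hochberg). Its adjusted p by limma was 0.0416 with Xist, read for sex, as a covariate and 0.049 with a variance prior that follows the mean level, within a range of 0.0416 to 0.702 over all alternatives. Xist was low in 2 controls, both of litter 1, and in 1 mutant, so sex and litter cannot be told apart among controls. Among embryos with high Xist the mean log2 value of Epcam was 11.23 in controls and 10.89 in mutants.

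Cdh1 had log2 values of 10.59, 10.61, 10.80 and 10.93 in controls and 10.63, 10.65, 10.80 and 10.77 in mutants. The groups overlapped throughout, and the control litters, with means of 10.60 and 10.86, lay further apart than the genotypes, with means of 10.73 and 10.71. The log2 change was −0.02, with a 95% interval of −0.21 to 0.17. The further probe set of Cdh1 was dim, between 5.92 and 6.35 in controls and between 5.62 and 6.10 in mutants, and its log2 change was −0.16 with a 95% interval of −0.47 to 0.16.

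The claudins differed among themselves. Cldn6, a claudin of embryonic epithelia, had log2 values of 10.85, 10.76, 11.17 and 10.93 in controls and 10.58, 10.66, 10.55 and 10.84 in mutants. The groups overlapped through mutant 4, which lay above control 2. Its log2 change was −0.27 ± 0.10 (SE, n = 4 per group), and the adjusted p was 0.414 (limma, Benjamini-Hochberg). Cldn4, a claudin of tight epithelial barriers, had log2 values of 8.96, 9.02, 9.33 and 9.18 in controls and 9.02, 8.95, 8.90 and 8.96 in mutants. Control 1 alone lay within the mutant range, the other controls above all mutants, and the log2 change was −0.17 with a 95% interval of −0.35 to 0.02.

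Cldn3, whose gene lies next to Cldn4 on chromosome 5, had log2 values of 9.43, 9.24, 9.82 and 9.56 in controls and 9.54, 9.61, 9.57 and 9.63 in mutants. The controls enclosed the mutants, with an SD of 0.24 against 0.04. The log2 change was 0.08, with a 95% interval of −0.17 to 0.32. Cldn7, a claudin that binds EpCAM, had log2 values of 7.60, 7.39, 7.54 and 7.60 in controls and 7.52, 7.49, 7.66 and 7.63 in mutants. The groups overlapped, and the log2 change was 0.04 with a 95% interval of −0.12 to 0.20.

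**Figure D2:**
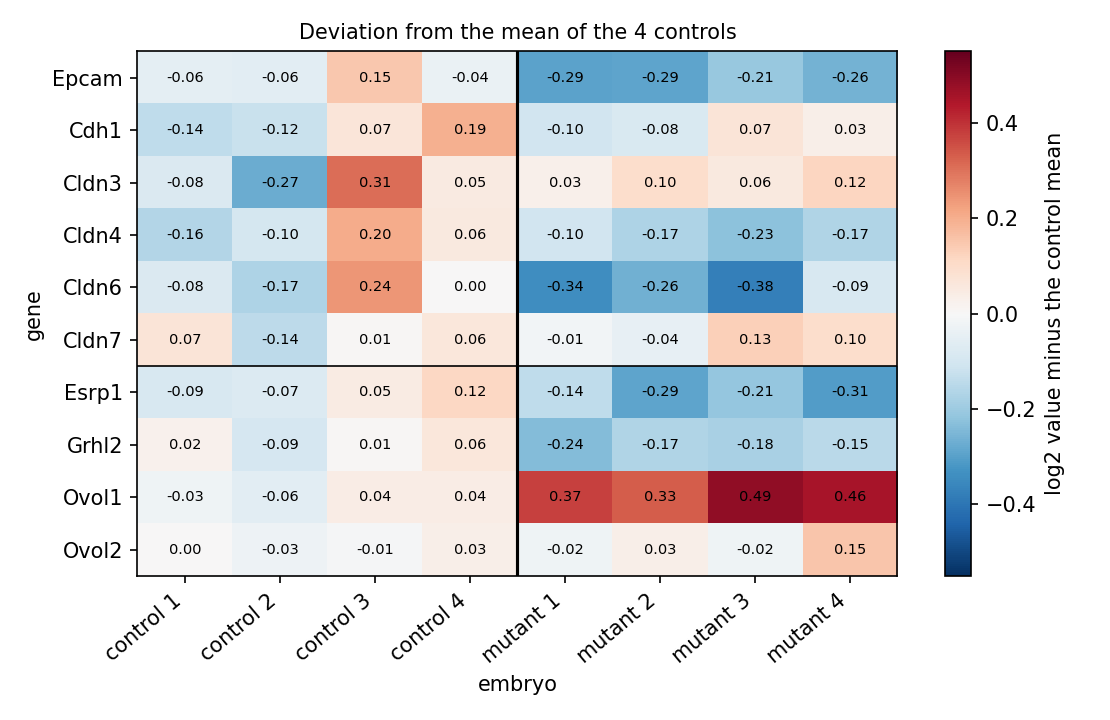
Log2 value minus the mean of the 4 controls for the 10 genes (rows) in the 8 embryos (columns), printed in each cell. Ovol1 is high in all mutants, Epcam, Esrp1 and Grhl2 are low in all mutants, and control 3 is the highest control for Epcam, Cldn3, Cldn4 and Cldn6.

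Set side by side, the 6 structural genes had a median log2 change of −0.09 and a range of −0.27 to 0.08, with 4 below 0. The 4 regulators had a median of −0.07 and a range of −0.24 to 0.41, with 2 below 0. The median of all genes was 0.0068, and that of genes above the median level was −0.017. The upper end of the regulators was Ovol1, and with genes below the median level left out, which removes Ovol1 and Cldn7, the regulator median was −0.18. The structural median was −0.22 without litter 1 and 0.02 without litter 2, both of them control litters. The mean deviation of the structural genes from the control mean was −0.07, −0.14, 0.16 and 0.05 in controls and −0.14, −0.13, −0.09 and −0.04 in mutants. All mutants lay within the control range.

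Other epithelial genes were set beside these values. The fixed list of 12 lung epithelium genes had mean deviations of −0.07, −0.09, 0.06 and 0.09 in controls and −0.09, −0.08, −0.09 and −0.02 in mutants, and a summed log2 level of 120.32 to 122.54 in controls and 120.33 to 121.12 in mutants. In that list 1 gene fell, Foxa1, a transcription factor of lung endoderm, by 0.56 on the log2 scale, 0 rose and 11 did not pass. By limma 5 of the 12 had an unadjusted p under 0.05, against 9.87% of all genes. The log2 changes ran from −0.56 to 0.50, the highest being that of Krt19, a keratin of simple epithelia. In 4 of the 12 all mutants lay below all controls, against 3.6% of all genes. The mean of the list on each array, Foxa1 included, then served as a reference. That mean differed by −0.07 between mutants and controls, and a reference without Foxa1 was not used. Relative to it, the log2 change was 0.48 for Ovol1, −0.19 for Epcam, −0.20 for Cldn6, −0.17 for Esrp1 and −0.11 for Grhl2, while the median of all genes moved to 0.08. Whether this reference adjusts for the share of epithelial cells was not tested. On that scale the groups of Ovol1, Esrp1 and Grhl2 did not overlap, which held for 9.13% of all genes, and those of Epcam overlapped. The SE of the Epcam change was 0.10 on that scale and 0.07 with the deposited values. Ovol1 passed there (limma, Benjamini-Hochberg adjusted p = 0.0186), and the other 9 genes did not pass.

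**Figure D3:**
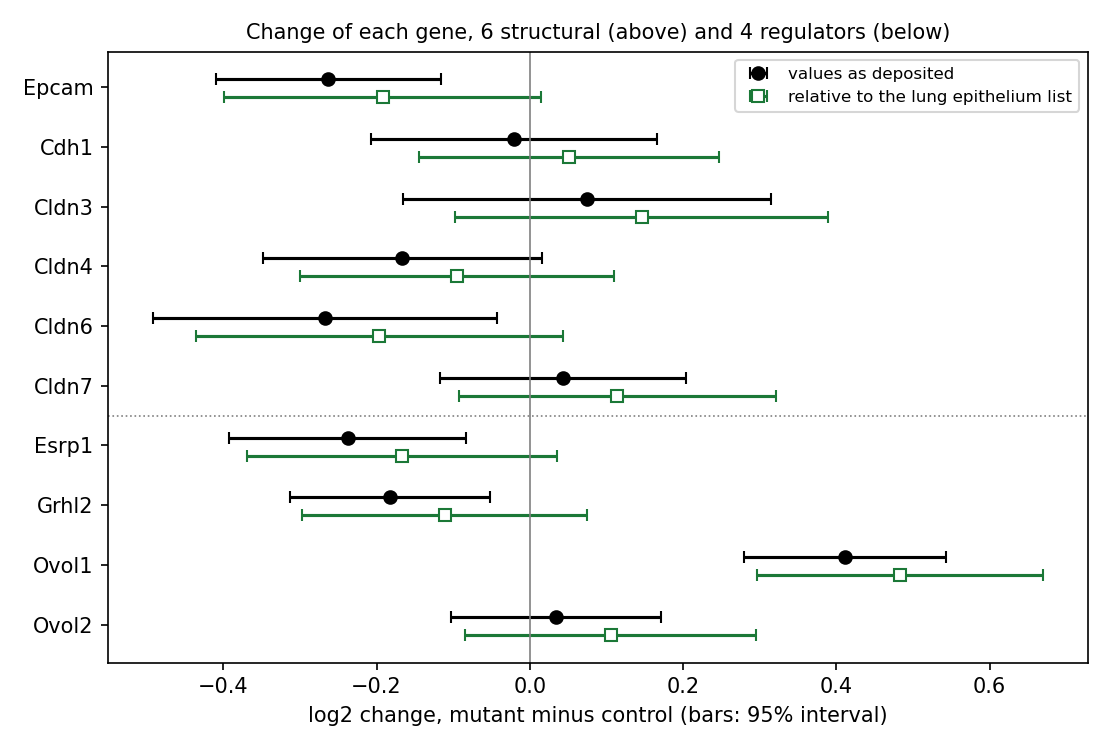
Log2 change of each gene, mutant minus control, with its 95% interval by limma, from the deposited values (filled circles) and relative to the list of 12 lung epithelium genes, Foxa1 included (open squares). The interval of Ovol1 lies above 0 on both scales, and those of Epcam, Cldn6, Esrp1 and Grhl2 lie below 0 on the first scale and include 0 on the second. Intervals are wider on the second scale.

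**Figure D4:**
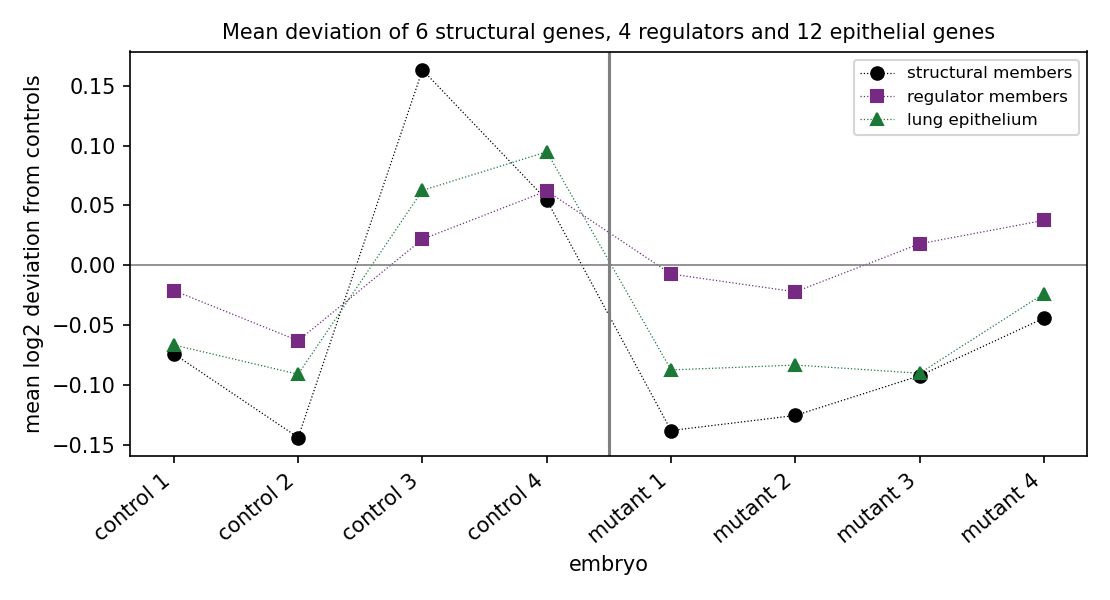
Mean log2 deviation from the control mean in each embryo, over the 6 structural genes (circles), the 4 regulators (squares) and the 12 lung epithelium genes (triangles). The structural and epithelium means are highest in controls 3 and 4, the regulator mean is highest in control 4, and the mutants lie within the range of the controls.

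Most pairs of these genes had positive correlations from embryo to embryo, but pairs of regulators did not over the 8 arrays. There, 13 of 15 pairs of structural genes were positive, with a median r of 0.45. The same held for 2 of 6 pairs of regulators, with a median of −0.22, and for 18 of 24 mixed pairs, with a median of 0.28. After each genotype's mean was subtracted, correlations were positive in 14 of 15 pairs of structural genes, with a median r of 0.58, in 5 of 6 pairs of regulators, with a median of 0.31, and in 23 of 24 mixed pairs, with a median of 0.42. Ovol1 and Epcam had r = −0.80 over the 8 arrays and 0.60 within genotypes, and Ovol1 and Grhl2 had −0.80 and 0.49. These are descriptions of 8 arrays that share litters and sex in groups. The share of positive pairs over all genes was not computed, and the part of differences between whole arrays was not tested.

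The genes most like the mean of the structural genes over the 8 arrays, among 10595 genes above the median level, were Arpin, an inhibitor of the ARP2/3 complex, with r = 0.983, Surf4, a cargo receptor of the secretory pathway, with r = 0.982, Mid1ip1 with r = 0.981, Snhg18, a noncoding RNA, with r = 0.979, and Tmem97 with r = 0.976. Within genotypes their r with the structural mean ran from 0.973 to 0.989. Their log2 changes lay between −0.16 and −0.04, and none passed.

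Relatives of the regulators held the largest log2 change of the pathway lists. Grhl3, a family member that acts in surface epithelia and barrier formation, had log2 values of 7.24, 7.21, 7.52 and 7.43 in controls and 8.53, 8.48, 8.27 and 8.28 in mutants. All mutants lay above all controls, and mutants of litter 3 above those of litter 4. Grhl3 rose by 1.04 ± 0.09 on the log2 scale (SE, n = 4 per group), 2.05-fold (limma, Benjamini-Hochberg adjusted p = 0.000225), and it passed in 27 of 27 alternatives. Of 9 measured partners and relatives 1 rose, 0 fell and 8 did not pass, with a median of 0.05. By limma 4 of the 9 had an unadjusted p under 0.05, against 9.87% of all genes. Esrp2, the paralogue of Esrp1, had log2 values of 9.32 to 9.55 in controls and 9.19 to 9.25 in mutants and a log2 change of −0.20, and Klf5, a factor of proliferating epithelia, had one of 0.28. Neither passed, and the groups of both did not overlap.

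Among 10 measured genes that GRHL2 binds or holds active, 1 rose, 0 fell and 9 did not pass, with 7 log2 changes below 0 and a median of −0.08. By limma 4 of the 10 had an unadjusted p under 0.05, against 9.87% of all genes. The gene that rose was Prom2, which encodes a protein of plasma membrane protrusions. Its log2 values were 7.25 to 7.39 in controls and 7.59 to 7.76 in mutants, and the log2 change was 0.35 ± 0.06 (SE, n = 4 per group), and the adjusted p was 0.028 (limma, Benjamini-Hochberg). That call held in 9 of 26 alternatives, with adjusted p by limma from 0.0119 to 0.183, and it was lost when any embryo but mutant 2 was left out. Mal2, a protein of apical transport, had the lowest log2 change of this list, −0.27, with all mutants below all controls, and did not pass.

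**Figure D5:**
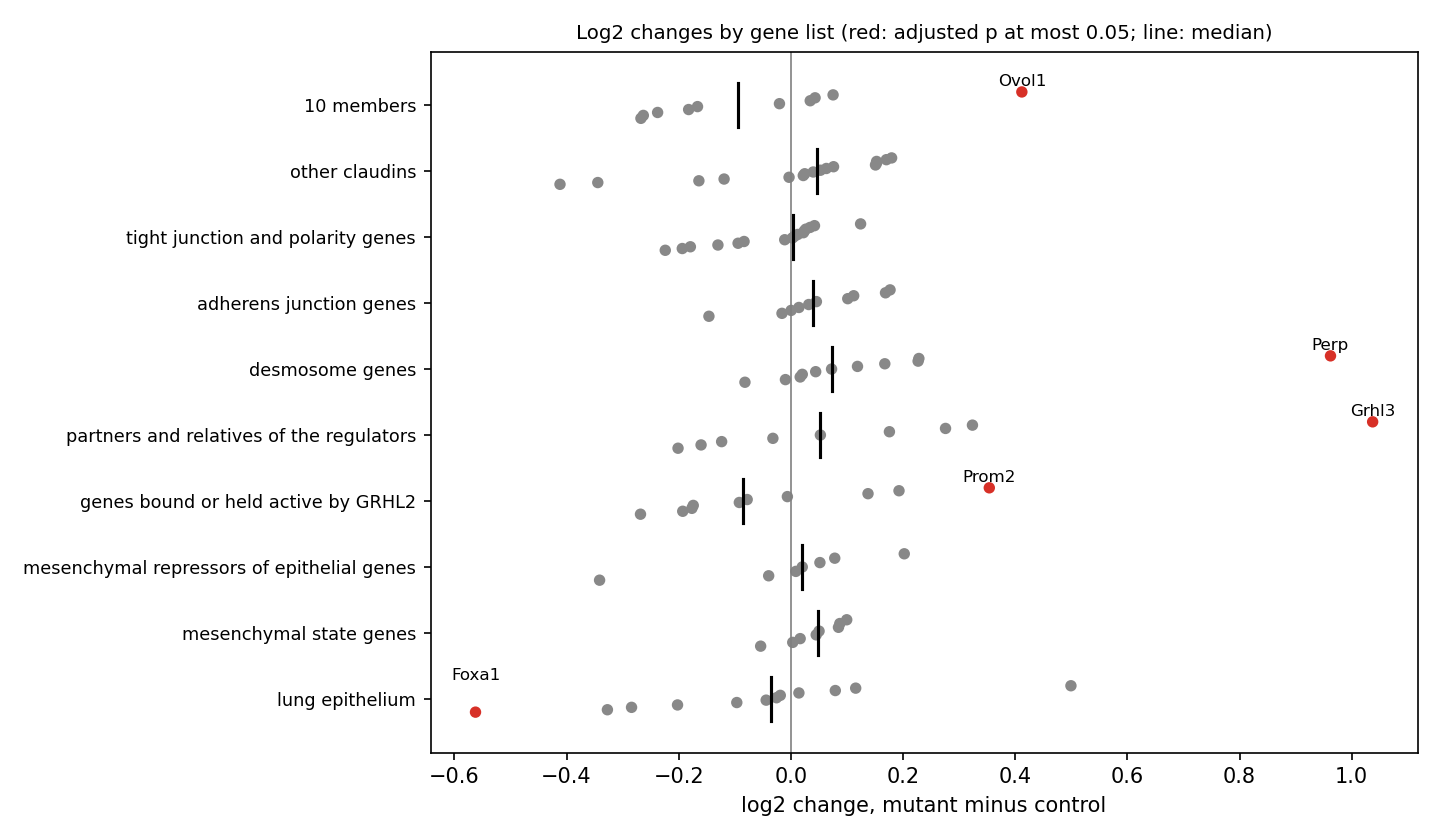
Log2 change, mutant minus control, of each measured gene in the 10 genes and in lists of junction genes, relatives of the regulators, GRHL2 genes, repressors, mesenchymal state genes and lung epithelium genes, with genes that passed the test in red and a line at each median. Grhl3, Perp, Ovol1 and Prom2 passed to the right of 0 and Foxa1 to the left, and the medians lie between −0.09 and 0.07.

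Few other junction genes passed. Of 16 other claudins 0 passed by limma and 4 had an unadjusted p under 0.05, against 9.87% of all genes. Their median log2 change was 0.05. The largest log2 changes were those of Cldn18, the claudin of lung and stomach epithelium, −0.41 ± 0.12, and Cldn10, −0.34 ± 0.09 (SE, n = 4 per group). In both all mutants lay below all controls. Of 16 tight junction and polarity genes 0 passed by limma and 3 had an unadjusted p under 0.05, with the largest values for Mpp5, a scaffold of the Crumbs complex, −0.22, and Lsr, a protein of tricellular junctions, −0.19. Of 10 adherens junction genes 0 passed by limma and 1 had an unadjusted p under 0.05, with the largest values for Jup, the gene of plakoglobin, 0.18, and Nectin1, 0.17. Of 11 desmosome genes 1 rose, Perp, a desmosome protein of stratified epithelia, by 0.96 on the log2 scale, and 0 fell. By limma 3 had an unadjusted p under 0.05, and log2 changes lay above 0 in 9 of 11, with a median of 0.07. The mean deviation of this list, Perp included, was −0.04 to 0.05 in controls and 0.13 to 0.18 in mutants.

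The repressors of epithelial genes did not pass. Zeb1 had log2 values of 8.83, 8.78, 8.91 and 8.93 in controls and 9.07, 9.07, 9.11 and 9.004 in mutants. All mutants lay above all controls, and the log2 change was 0.20 ± 0.06 (SE, n = 4 per group), and the adjusted p was 0.227 (limma, Benjamini-Hochberg). Twist2 had a log2 change of −0.34 with overlapping groups. Of 7 measured repressors 0 passed by limma and 2 had an unadjusted p under 0.05, against 9.87% of all genes. Their median log2 change was 0.02. Of 8 genes of the mesenchymal state 0 passed by limma and 0 had an unadjusted p under 0.05, with the largest log2 changes for Cdh11, a mesenchymal cadherin, 0.10, and Vim, the gene of vimentin, 0.09.

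Some markers of stratified and oesophageal epithelium were also higher in mutants. Of 8 measured, Krt15, Krt4, Pax9 and Trp63 rose by 2.04, 1.22, 0.78 and 0.71 on the log2 scale, 0 fell and 4 did not pass, of which Krt13, Krt14 and Sprr3 had log2 changes of −0.01, −0.06 and −0.0055 and Dsg3 one of 0.07. The summed log2 level of the list, Krt15, Krt4, Pax9 and Trp63 included, was 48.96 to 50.08 in controls and 54.16 to 54.89 in mutants. Sprr3, a marker of the differentiated layers, had a mean log2 value of 4.53 in both groups. In whole lung, cells of such an epithelium and higher RNA of these genes in lung epithelial cells cannot be told apart. The relation of these markers to the values of Ovol1 and Grhl3 was not tested. Mesenchyme markers had a summed log2 level of 119.47 to 120.81 in controls and 120.63 to 120.94 in mutants. Of these 11, 0 passed by limma and 2 had an unadjusted p under 0.05, against 9.87% of all genes. Endothelium markers had a summed log2 level of 84.32 to 85.60 in controls and 85.18 to 85.44 in mutants, with 0 of 8 passing by limma and 1 at an unadjusted p under 0.05. Smooth muscle markers had a summed log2 level of 73.13 to 74.12 in controls and 71.22 to 72.66 in mutants. Their log2 changes lay below 0 in 7 of 7, with a median of −0.20, and 4 had an unadjusted p under 0.05 by limma. Of these 1 passed, Cnn1, an actin-binding protein of smooth muscle, which fell by 0.46 on the log2 scale. That call was lost with litter means, with the replicate block, without control 1, control 2, mutant 1, mutant 3 or mutant 4, without litter 1, 3 or 4, relative to lung epithelium, with every probe set tested and with high Xist. Of 6 mesothelium markers 1 passed, Upk1b, which rose by 0.46 on the log2 scale, a call lost with litter means, without control 4, mutant 4, litter 2 or litter 4 and with high Xist. The summed log2 level of the 6, Upk1b included, was 49.66 to 50.29 in controls and 50.53 to 50.75 in mutants, with a median log2 change of 0.04. Of the markers of red blood cells (4 measured), white blood cells (6) and liver and thymus (6), 0 passed by limma and 0 had an unadjusted p under 0.05. Their log2 changes lay above 0 in 3 of 4, 5 of 6 and 6 of 6. The mean deviation of the liver and thymus markers was −0.04 to 0.05 in controls and 0.17, −0.04, 0.15 and 0.18 in mutants 1 to 4. The part of these cell types and tissues in the values of the 10 genes was not tested.

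Ezh2 had log2 values of 11.87 ± 0.05 in controls and 11.78 ± 0.02 in mutants (SD, n = 4), with all mutants below all controls, and did not pass. Array medians were 7.05 to 7.12. Control 3 and mutant 3 had the lowest array weights, and with both left out Ovol1 still passed, with a log2 change of 0.40 (limma, Benjamini-Hochberg adjusted p = 0.0237).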

How the data were processed

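The authors deposited log2 expression values per probe set, made with RMA in the package oligo per the submitters' processing notes, with its version not given in the sources used here. A shift common to most genes is not visible after RMA, and changes of dim genes are shrunk. Of 41345 probe sets 23521 had 1 gene symbol, 1814 had several and 16010 were not listed in the platform annotation, which can be old. Log2 values were fitted with limma 3.58.1 in R 4.3.3 and the litter entered as a random block with a consensus correlation of 0.153, and p-values were two-sided and adjusted by the Benjamini-Hochberg method over 22180 genes. The fit was tested on simulated data. Embryos are separate animals, and their number limits the precision. Named are the 10 genes, Ezh2, list genes that passed or else the 2 with the largest change, the 5 genes most like the structural mean (predicted models left out) and direct chromosomal neighbours. Klf5, Esrp2, Mal2, Zeb1, Nkx2-1, Sftpc, Krt13, Krt14, Krt19, Dsg3 and Sprr3 were named after their values were seen where they fall outside that rule. The genes and lists were chosen with earlier results of these data known. Some genes of the lists were not analysed here. Promoters came from RefSeq, GRCm38.p6. Plots were made in Python 3.11.15 with matplotlib 3.10.9.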

Additional observations from a re-analysis of the deposited data

Results flagged for a closer look

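Values in which 1 embryo stood apart from the other 3 of its group by Dixon's criterion occurred in 10 of 154 groups of 4, where chance gives about 7.7. Among the 10 genes this was Epcam, with a log2 value of 11.32 in control 3 above the other controls. Without control 3 the log2 change of Epcam was −0.21 (limma, Benjamini-Hochberg adjusted p = 0.147). Mutant 3 was lowest for Mpp5 (8.76) and Krt15 (8.45) and highest for Slc4a1 (8.54). Control 4 was lowest for Twist2 (6.81) and highest for Dpy19l4, the neighbour of Esrp1 (9.49), and control 3 was highest for Mgme1, the neighbour of Ovol2 (9.13). Among mean deviations of lists from the control mean, mutant 4 was highest for lung epithelium (−0.024), mutant 3 highest for oesophagus and stratified epithelium (0.66), and mutant 2 lowest for liver and thymus (−0.044).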

How the results depend on the processing

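There were 27 alternatives, 1 of them (control 3 and mutant 3 left out together) chosen after seeing the data. Epcam, Cldn4, Cldn6, Esrp1, Grhl2 and Ovol1 kept their direction in all that tested them. Cdh1 turned to 0.11 without litter 2, 0.052 without litter 3, 0.0030 after quantile normalization and 0.051 relative to lung epithelium, and ran from −0.063 to 0.033 with 1 embryo left out. Cldn3 turned to −0.10 without litter 1 and −0.10 among embryos with high Xist (−0.011 to 0.17 with 1 embryo left out). Cldn7 turned to −0.028 without litter 4 and −0.022 with high Xist (−0.0054 to 0.071), and Ovol2 ran from −0.0064 to 0.056. The 1 called gene became 0 with litter means, without litter 1, without litter 4, with high Xist, and with dim genes left out, which removes Ovol1 from the test. Epcam made 1 gene called lower with the trended variance prior and with the Xist covariate. Pathway-list genes called lower numbered 0, but 2 without litter 1 and 2 with high Xist (Cldn10 and Cldn18 in both), 1 with the trended prior (Mal2) and 4 with the Xist covariate (Cldn10, Esrp2, Ap1m2 and Mal2). The structural median was −0.22 without litter 1, 0.021 without litter 2 and −0.23 with high Xist, and the regulator median −0.18 without dim genes and −0.0029 relative to lung epithelium. The causes were not tested beyond the samples or genes each alternative removes. Over all genes, 134 higher and 55 lower calls became 65 and 33 with litter means, 361 and 313 with the Xist covariate, 190 and 95 without a litter block, 167 and 91 after quantile normalization, 113 and 74 with median-centred arrays, 115 and 21 relative to lung epithelium, 99 and 34 with every probe set tested, 79 and 71 with high Xist, 98 and 90 without litter 1, 75 and 23 without litter 4, 89 and 32 without control 4, 73 and 28 without mutant 4, and 195 and 96 at a threshold of 0.1. With a replicate block Ovol1 kept its call (limma, Benjamini-Hochberg adjusted p = 0.0232), and 140 and 55 genes were called. Same-numbered embryos correlated at −0.27 to 0.03, and the highest r with an embryo of another number was 0.13 to 0.38. A processing step shared by same-numbered embryos was not tested.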

Other observations

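The genes that lie beside the 10 genes on their chromosomes were read for comparison. Of those tested, 0 of the genes outside the 10 passed. Cldn9, which lies 137 bases from Cldn6, had a log2 change of 0.15 beside −0.27 for Cldn6, and Tnfrsf12a, on its other side, had −0.04. Ap5b1, which overlaps Ovol1 in the gene table, had −0.07 beside 0.41. The remaining values were 0.10 for Tango6 beside Cdh1, 0.20 for Mettl27 beside Cldn4, −0.02 for Wbscr25 beside Cldn3, −0.0042 for Elp5 beside Cldn7, −0.0048 for Dpy19l4 beside Esrp1, −0.09 for Gm16136 and −0.0084 for Ncald beside Grhl2, and −0.19 for Mgme1 beside Ovol2.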
